A study of Homo sapiens with 6 samples.

Results

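The DNA replication machinery was followed here as 50 named genes in MCF12A cells. The genes were chosen by gene symbol and by role, not by their values, although earlier results of these data were known. They encode the proteins that license origins, unwind and copy DNA, supply nucleotides and rebuild chromatin behind the fork. Of the 50, 49 had a row among the 24294 loci of the expression table, 1 is not analysed here, and each of the 49 had a mean of at least 1 FPKM (fragments per kilobase of transcript, scaled to the mapped fragments of the library), the minimum for testing. The lowest of them was POLE2 with a mean of 3.96 FPKM over the 6 libraries, so that no gene lay close to that minimum.

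MCF12A is an immortalized, non-tumorigenic human mammary epithelial line, although the labels call it a breast cancer line. The 2 groups were MCF12A cells that stably over-expressed miR-424 (miR-424 cells, 3 samples) and MCF12A cells with an empty vector (EV cells, 3 samples), each cultured in triplicate for 48 hours before the RNA was taken. The sources used here do not give the vector, its promoter, or whether a line was a clone or a pool. The triplicates are not said to come from separately derived lines, so the p-values reflect how far these cultures differ, and that spread may be technical. The comparison addressed the effect of excess miR-424, placed by the title of the study under TWIST1, on the transcripts of these cells.

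Before a cell can copy its DNA, the origin recognition complex, CDC6 and CDT1 load the MCM2-7 helicase onto origins in G1 phase, and geminin (GMNN) blocks reloading afterwards. In S phase CDC45 and the GINS complex turn the loaded helicase into the moving replication engine, RPA coats the single strands, the clamp PCNA is loaded by the RFC complex, and the polymerases alpha, delta and epsilon make new DNA. Many of these genes are transcribed as cells enter S phase through E2F transcription factors, and miR-424, a relative of miR-15 and miR-16, is known for repressing G1 cyclins and kinases that act upstream of E2F.

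The mature form of the over-expressed microRNA is shown first, because its seed (bases 2 to 8, in capitals) sets which transcripts it can pair with. The sequence is from RefSeq, build GRCh38.p14, and lies at chrX:134546680-134546701 on the minus strand.
hsa-miR-424-5p: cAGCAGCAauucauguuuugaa

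A perfect match to that seed, TGCTGCT, was found in the annotated 3' untranslated region of 6 of the 49 replication genes (12.2%), against 24% of the 10665 tested loci with such a region. The replication genes' regions were also shorter, with a median of 797 nucleotides against 1257 over the tested loci. For each locus the longest 3' untranslated region annotated in GENCODE 29 (GRCh38) was searched. The genes with a match were ORC4 (3 matches), POLD3 (2 matches) and CDT1, GINS2, GINS4 and UNG (1 each). The sites are shown as 30 bases of the transcript strand with the match in capitals, to give the context of each match. They are shown for POLD3, CDT1, GINS2 and UNG (GENCODE 29, GRCh38), all genes with a negative log2 change. The sites of ORC4, which had the most matches and a positive log2 change (0.08), and of GINS4 (-0.06) are not shown. The sites shown therefore do not represent the direction of change of all genes with a match. A match is a description of the letters and not evidence of binding.
POLD3 (chr11:74641526-74641555, + strand): aggagctgccgTGCTGCTgatacggggtgt
POLD3 (chr11:74641551-74641580, + strand): ggtgtgctttaTGCTGCTctttgcggtttg
CDT1 (chr16:88808510-88808539, + strand): acctctgtcctTGCTGCTggtggggaaggg
GINS2 (chr16:85677378-85677407, - strand): gtcactttcagTGCTGCTcttgatggattt
UNG (chr12:109110302-109110331, + strand): agtttggcgccTGCTGCTccttggttttgc

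Promoters were searched as well, since E2F factors bind there. An E2F-type word (TTTCCCGC, TTTCGCGC, TTTGCCGC or TTTGGCGC on either strand) stood within 250 bases before to 50 bases after the start of 18 of the 43 replication genes with a RefSeq promoter in the reference (41.9%). The same words were found in 5.65% of the promoters of 8235 tested genes and in 3.33% of all 27305 promoters. Matches on opposite strands can overlap, as in MCM2 and MCM6. Only these exact words were counted, so a promoter without one may hold another E2F-type sequence. Which genes passed the expression test, described below, depended on the setting. With a GC trend removed, CHAF1B, GMNN, PRIM1 and UNG passed, and their promoters held no such word. The 3 replication genes that passed with the values as deposited each held such a word. Their promoters are printed with the words in capitals (RefSeq, GRCh38.p14, written in the direction of transcription).
MCM3 (chr6:52284693-52284992, - strand): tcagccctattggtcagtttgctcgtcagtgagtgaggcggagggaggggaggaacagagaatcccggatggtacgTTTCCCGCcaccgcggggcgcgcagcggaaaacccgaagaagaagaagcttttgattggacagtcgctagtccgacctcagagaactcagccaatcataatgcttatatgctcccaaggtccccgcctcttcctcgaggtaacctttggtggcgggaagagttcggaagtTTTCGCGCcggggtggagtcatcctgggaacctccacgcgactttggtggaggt
GINS1 (chr20:25407423-25407722, + strand): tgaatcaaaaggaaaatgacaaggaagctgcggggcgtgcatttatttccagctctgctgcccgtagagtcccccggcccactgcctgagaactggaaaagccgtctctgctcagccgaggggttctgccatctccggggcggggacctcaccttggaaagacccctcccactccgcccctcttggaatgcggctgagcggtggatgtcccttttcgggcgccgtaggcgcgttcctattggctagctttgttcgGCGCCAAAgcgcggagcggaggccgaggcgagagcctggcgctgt
POLE (chr12:132687293-132687592, - strand): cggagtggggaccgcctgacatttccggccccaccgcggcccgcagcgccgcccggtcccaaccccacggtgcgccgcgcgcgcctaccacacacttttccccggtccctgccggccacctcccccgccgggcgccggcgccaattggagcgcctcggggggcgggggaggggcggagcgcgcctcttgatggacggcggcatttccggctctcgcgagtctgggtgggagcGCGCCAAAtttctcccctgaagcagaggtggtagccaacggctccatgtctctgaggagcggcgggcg
The words began at positions -174 and -4 from the start site in MCM3, at -18 in POLE and at 5 in GINS1. CCAAT, on either strand, was present in 23 of the 43 promoters (53.5%), against 37.4% of those of tested genes.

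The construct was read out through the locus listed as MGC16121 and MIR424, the host transcript of the microRNA. It was at 107, 106 and 224 FPKM in the miR-424 libraries, against 0.989, 1.27 and 1.23 FPKM in the EV libraries, so that every library went with its label and miR-424 replicate 3 was highest. FPKM values summed to between 409776 and 416076 in the miR-424 libraries and to between 419938 and 424564 in the EV libraries. Of 8 mammary epithelial markers 6 were at a mean of at least 1 FPKM, with KRT8 the most abundant, whereas CDH1 (at most 0.0212 FPKM in miR-424 and 0.0387 FPKM in EV cells) and TP63 (at most 0.192 FPKM in miR-424 and 0.168 FPKM in EV cells) were near 0. Endothelial and leukocyte markers, 4 of each and all under the minimum, summed to at most 0.283 and 0.421 FPKM in a miR-424 library and to at most 0.322 and 0.616 FPKM in an EV library. Of 6 fibroblast markers COL1A1 and DCN were above the minimum, and the list summed to between 164 and 186 FPKM in miR-424 and between 157 and 167 FPKM in EV cells. Among the markers the basal keratin gene KRT5 fell (log2 change -0.63; adjusted p = 0.00415), while KRT14 (0.71; adjusted p = 0.0165) and COL1A1 (0.21; adjusted p = 0.0456) rose, by limma with Benjamini-Hochberg adjustment. The part of these marker changes in the results below was not tested.

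Most replication genes had slightly lower values in miR-424 cells, and 3 of the 49 fell past the test: the helicase subunit gene MCM3, the helicase cofactor gene GINS1 and the polymerase gene POLE. On the log2(FPKM + 1) scale 47 of the 49 had a negative change, the median change was -0.105 and the range was -0.27 to 0.08. Over all 11574 tested loci 68.3% had a negative change, with a median of -0.047. When libraries were brought to a common level by median-of-ratios scaling, 35 of the 49 were negative with a median of -0.039, beside 45% and a median of 0.014 over all loci. The difference between the medians, replication genes minus all tested loci, was -0.058 with the values as deposited and lay between -0.084 and -0.053 in the 16 alternative settings. Settings that change only the errors cannot move this difference, and a shift of whole libraries largely cancels in it. The value of -0.084 came with no minimum FPKM, where 19342 loci were compared. In bulk RNA, fewer cells in S phase and less mRNA per cell cannot be told apart.

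**Figure D1:**
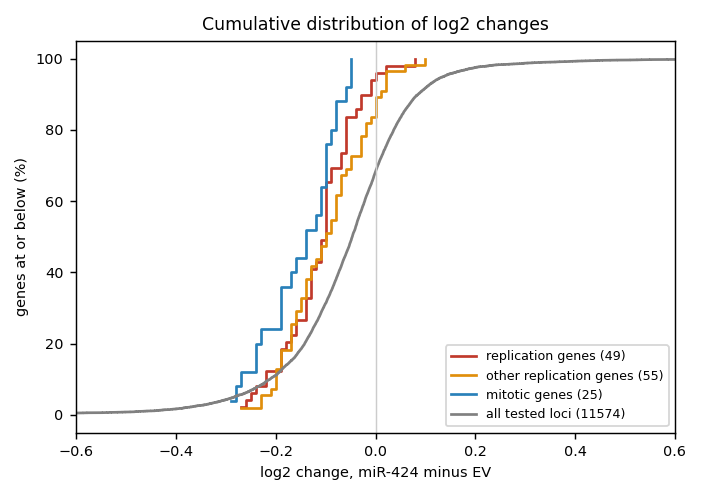
Cumulative percentage of genes (y axis) at or below each log2 change, miR-424 minus EV (x axis, cropped at -0.6 and 0.6), for 49 replication genes, 55 other replication genes, 25 mitotic genes and 11574 tested loci. The curves of the 3 gene lists lie to the left of the curve of all loci over most of the range, with medians of -0.105, -0.098 and -0.141 against -0.047. In miR-424 replicate 3 alone these medians were -0.169, -0.224 and -0.329, against -0.113 for all loci.

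MCM3, GINS1 and POLE fell, and no replication gene rose, at an adjusted p under 0.05 (limma, Benjamini-Hochberg over all tested loci, as for every adjusted p here). That is 6.12% of the 49 lower and 0% higher, beside a background of 6.32% of tested loci lower (731) and 1.24% higher (144), so the share of called replication genes was near the background. Another 8 replication genes, FEN1, POLD3, POLA2, UNG, CHAF1B, GINS2, PCNA and TK1, did not pass but had an adjusted p between 0.05 and 0.1. The share of all tested loci in that band was not counted, so these 8 have no background beside them. By the values alone, all 3 miR-424 libraries lay below all 3 EV libraries for 26 of the 49 (53.1%), against 26.9% of the tested loci. All miR-424 libraries lay above all EV libraries for 0 of the 49, against 6.59% of the tested loci. These separations, here and by role below, used FPKM as deposited and were not counted again after scaling. The part of library level in them was not tested. An unadjusted p under 0.05 was reached by 20 of the 49 and by 2732 of the 11574 loci.

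The calls depended on single libraries. Leaving out EV replicate 1, 2 or 3 or miR-424 replicate 1 or 2 left 0 of the 49 past the threshold in either direction, while leaving out miR-424 replicate 3 gave 27 lower and 2 higher (55.1% and 4.08%). The background without miR-424 replicate 3 was 22.2% of loci lower and 14.9% higher. Without 1 of the EV libraries, 0.665% to 0.726% of loci were lower and 0.268% to 0.302% higher. Without miR-424 replicate 1 it was 2.42% lower and 0.544% higher, and without replicate 2 3.15% and 0.717%. In those fits few loci of any kind were called, so 0 of the 49 was near the background. Median-of-ratios scaling kept GINS1 (adjusted p = 0.0459) but not MCM3 (0.277) or POLE (0.201), and over all loci it gave 344 rises and 436 falls in place of 144 and 731.

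**Figure D2:**
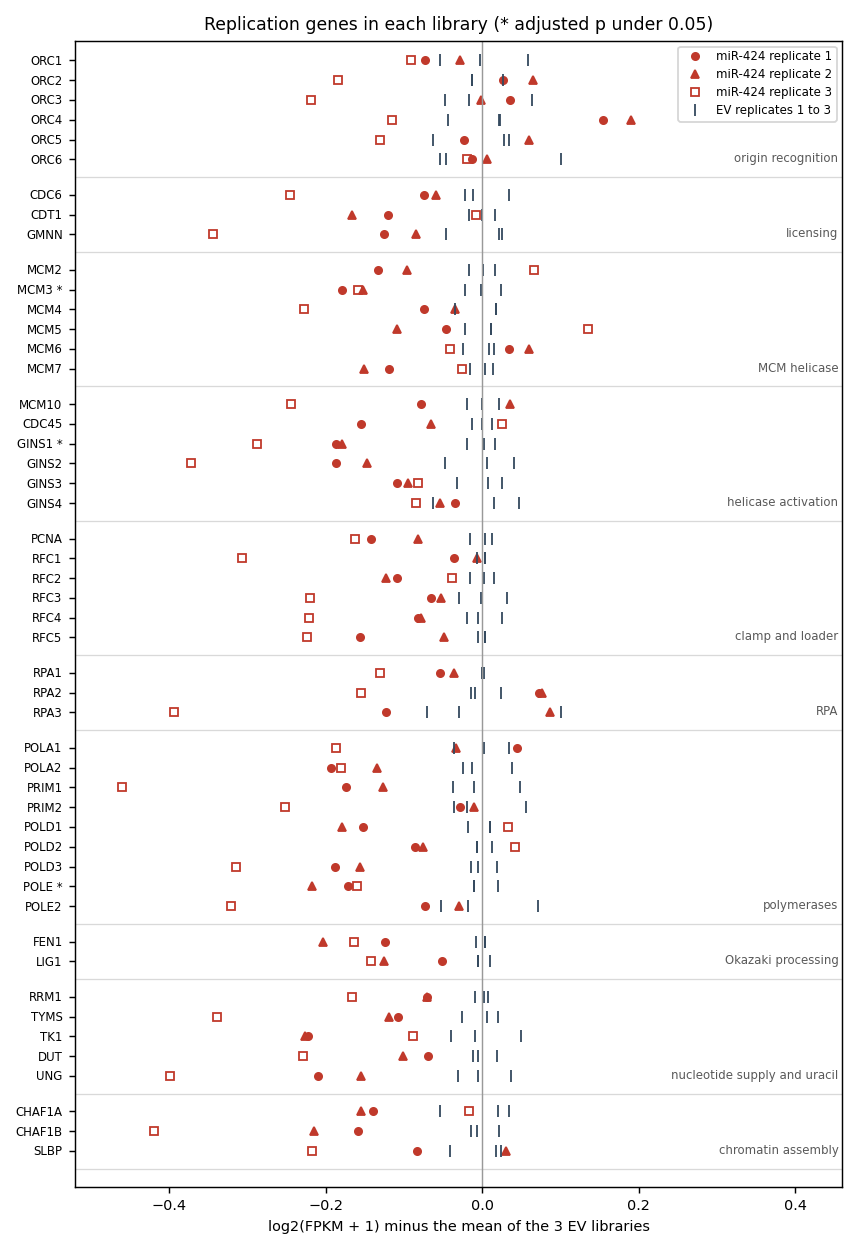
Each of the 49 replication genes by role (rows) in every library, as log2(FPKM + 1) minus the mean of the 3 EV libraries (x axis), with red symbols for miR-424 replicates and dark ticks for EV replicates. Most red symbols lie left of the EV ticks, and miR-424 replicate 3 (open squares) often stands apart from replicates 1 and 2, to the left for genes such as PRIM1 and to the right for MCM5.

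Origin recognition genes did not pass the test. ORC1 to ORC6 encode the subunits of the complex that marks origins. Their log2 changes ran from -0.06 to 0.08 with a median of -0.032, close to that of all tested loci. In none of the 6 did the groups separate. Most tested loci did not separate either, with 26.9% lower and 6.59% higher in every miR-424 library. ORC5, the most abundant of them, was at 21.2, 22.5 and 19.6 FPKM in miR-424 cells, against 22.0, 22.1 and 20.6 FPKM in EV cells (log2 change -0.03 ± 0.06, SE; adjusted p = 0.818). Its 2 groups overlapped, with miR-424 replicate 2 the highest library of all. ORC4 had the most positive change of the 49 genes, at 7.99, 8.22 and 6.46 FPKM in miR-424 cells, against 7.21, 7.2 and 6.84 FPKM in EV cells (log2 change 0.08 ± 0.08, SE; adjusted p = 0.657). In ORC4, the gene with 3 seed matches, miR-424 replicates 1 and 2 were above and replicate 3 below every EV library. Without replicate 3 ORC4 was among the 2 genes called higher.

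The 3 licensing genes had lower means in miR-424 cells, and 0 of them passed the test. GMNN, the inhibitor of CDT1, was at 30.9, 31.8 and 26.4 FPKM in miR-424 cells, against 34.4, 32.7 and 34.3 FPKM in EV cells (log2 change -0.19 ± 0.07, SE; adjusted p = 0.184). The libraries did not overlap, but miR-424 replicate 3 lay well under the other two. CDC6, the ATPase that loads the helicase with CDT1, had 25.8, 26.1 and 22.8 FPKM in miR-424 cells, against 27.0, 26.8 and 27.9 FPKM in EV cells (adjusted p = 0.256). CDT1 had 15, 14.5 and 16.3 FPKM in miR-424 cells, against 16.6, 16.4 and 16.2 FPKM in EV cells (adjusted p = 0.299), and here replicate 3 lay within the EV range.

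Among the 6 subunits of the MCM2-7 helicase, MCM3 fell. MCM3 (chr6:52128811-52149679, hg19) was at 62.5, 63.7 and 63.4 FPKM in miR-424 cells, against 69.8, 70.8 and 72.1 FPKM in EV cells. Its means were 63.2 ± 0.639 FPKM in miR-424 cells and 70.9 ± 1.16 FPKM in EV cells (SD, n = 3 each), a log2 change of -0.16 ± 0.03 (SE; adjusted p = 0.0355). The miR-424 libraries formed a tight cluster below the EV libraries, and replicate 3 lay beside the others.

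The other subunits, which form a ring with MCM3, did not pass. MCM7, the most abundant, was at 135, 132 and 144 FPKM in miR-424 cells, against 147, 145 and 148 FPKM in EV cells (log2 change -0.10 ± 0.04, SE; adjusted p = 0.215). All miR-424 libraries of MCM7 lay below the EV libraries, replicate 3 only just. MCM4 was at 106, 109 and 95.2 FPKM in miR-424 cells, against 113, 113 and 109 FPKM in EV cells (adjusted p = 0.271). MCM5 was at 41, 39.2 and 46.6 FPKM in miR-424 cells, against 42.7, 41.7 and 42.7 FPKM in EV cells (adjusted p = 0.963). For MCM5, as for MCM2 (adjusted p = 0.631), miR-424 replicates 1 and 2 were below and replicate 3 was above every EV library. MCM6 had a mean of 43.6 ± 1.63 FPKM in miR-424 cells and 43.1 ± 0.65 FPKM in EV cells (SD, n = 3 each; adjusted p = 0.867). By FPKM, which is scaled to transcript length, the 6 subunits spanned means over all libraries from 42.3 FPKM for MCM5 to 142 FPKM for MCM7.

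Of the 6 genes that activate the helicase, GINS1 fell. GINS1 (PSF1; chr20:25388322-25429191, hg19), a subunit of the GINS complex that joins CDC45 to the MCM ring, was at 16.8, 16.9 and 15.6 FPKM in miR-424 cells, against 19.0, 19.3 and 19.5 FPKM in EV cells. Its means were 16.4 ± 0.731 FPKM in miR-424 cells and 19.3 ± 0.25 FPKM in EV cells (SD, n = 3 each), a log2 change of -0.22 ± 0.04 (SE; adjusted p = 0.0345). All 3 miR-424 libraries were below the EV libraries.

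GINS2, with 1 seed match, had a slightly more negative change and more spread, at 20.6, 21.2 and 18 FPKM in miR-424 cells, against 24.3, 23.7 and 22.8 FPKM in EV cells (log2 change -0.24 ± 0.07, SE; adjusted p = 0.0838). GINS3 had 6.83, 6.91 and 6.98 FPKM in miR-424 cells, against 7.49, 7.26 and 7.59 FPKM in EV cells (adjusted p = 0.21). Both had groups that did not overlap. GINS4, also with 1 seed match, had overlapping groups (log2 change -0.06 ± 0.05, SE; adjusted p = 0.516). CDC45 and MCM10, which helps recruit polymerase alpha, also had overlapping groups, with log2 changes of -0.07 and -0.10 (adjusted p = 0.529 and 0.495).

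**Figure D3:**
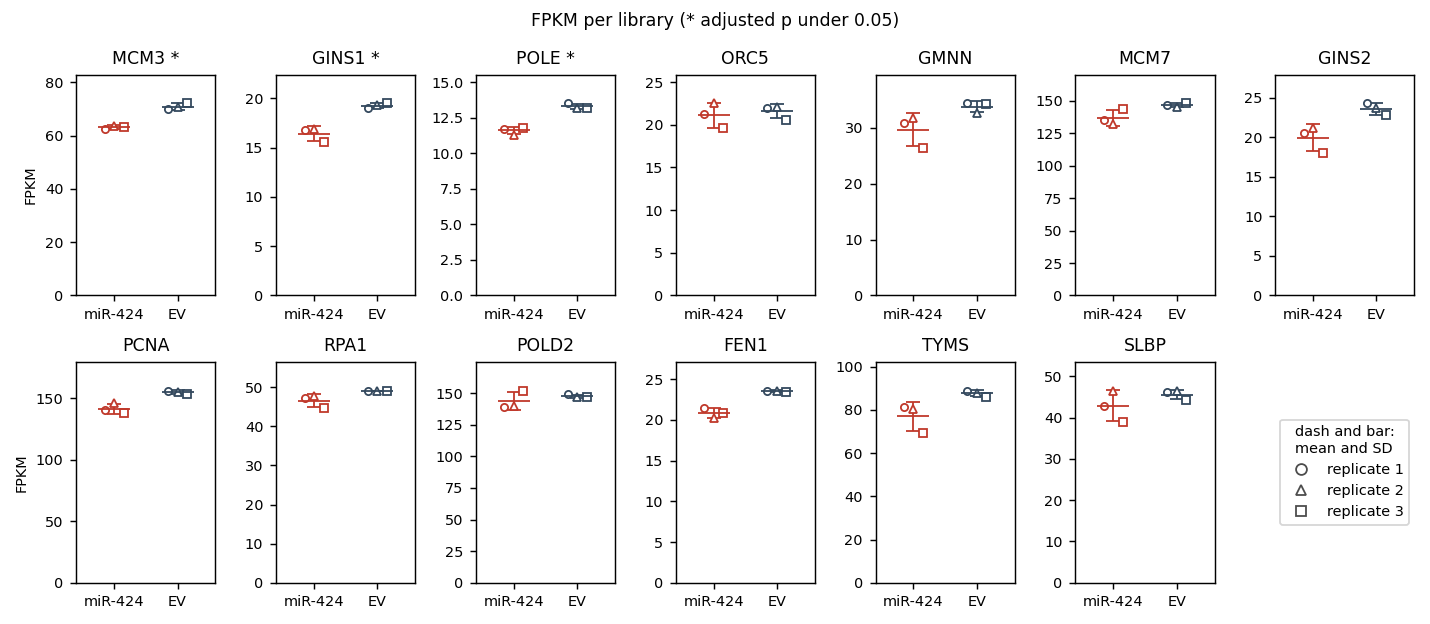
FPKM (y axes, from 0) in each library of miR-424 and EV cells for the 3 genes that passed the test and the most abundant gene of each role, with symbols for replicates 1 to 3 and the mean and SD of each group. The miR-424 points of MCM3, GINS1 and POLE lie close together and below the EV points, while those of GMNN, TYMS and SLBP are spread by a low replicate 3.

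The genes of the sliding clamp and its loader had lower means in miR-424 cells without passing the test, and each miR-424 library was below each EV library in 5 of these 6 genes, against 26.9% of all tested loci. PCNA was at 140, 146 and 138 FPKM in miR-424 cells, against 156, 155 and 153 FPKM in EV cells (log2 change -0.13 ± 0.04, SE; adjusted p = 0.0838). PCNA shares its stretch of the genome with the antisense gene PCNA-AS1 (mean 26 FPKM), and the sources used here do not say whether strand was used. RFC2, RFC3, RFC4 and RFC5, small subunits of the loader, had log2 changes between -0.14 and -0.09 with adjusted p from 0.157 to 0.272. RFC4 (mean 39.8 FPKM) shares its listed stretch with EIF4A2 (mean 211 FPKM), so its reads may not be fully separable. RFC1, the large subunit, was at 13.6, 13.9 and 11.1 FPKM in miR-424 cells, against 14, 14 and 13.9 FPKM in EV cells, so that its difference lay in replicate 3. Of the RPA genes, whose products coat single-stranded DNA, RPA1 had 47.2, 47.8 and 44.7 FPKM in miR-424 cells, against 49, 49.1 and 49 FPKM in EV cells (log2 change -0.07 ± 0.04, SE; adjusted p = 0.324). RPA2 (means of 28.4 FPKM in both groups) and RPA3 (log2 change -0.14 ± 0.12, SE, the widest error of the 49) had overlapping groups.

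Among the 9 polymerase genes, POLE fell. POLE (chr12:133200347-133263945, hg19), the catalytic subunit of the leading-strand polymerase epsilon, was at 11.7, 11.3 and 11.8 FPKM in miR-424 cells, against 13.5, 13.2 and 13.2 FPKM in EV cells. Its means were 11.6 ± 0.266 FPKM in miR-424 cells and 13.3 ± 0.162 FPKM in EV cells (SD, n = 3 each), a log2 change of -0.19 ± 0.04 (SE; adjusted p = 0.0368). As for MCM3 and GINS1, each miR-424 library was below each EV library.

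POLD3, an accessory subunit of polymerase delta with 2 seed matches, was at 6.25, 6.41 and 5.64 FPKM in miR-424 cells, against 7.37, 7.23 and 7.18 FPKM in EV cells (log2 change -0.22 ± 0.05, SE; adjusted p = 0.0573). POLA2, the B subunit of polymerase alpha, was at 11.1, 11.6 and 11.2 FPKM in miR-424 cells, against 12.7, 13.2 and 12.6 FPKM in EV cells (adjusted p = 0.059). PRIM1, the catalytic subunit of primase, was at 14, 14.5 and 11.3 FPKM in miR-424 cells, against 15.5, 16.5 and 15.8 FPKM in EV cells (log2 change -0.26 ± 0.09, SE; adjusted p = 0.144). In these 3 genes the groups did not overlap, and in PRIM1 replicate 3 stood below the other two miR-424 libraries. POLD2, the most abundant polymerase subunit, was at 139, 140 and 152 FPKM in miR-424 cells, against 149, 147 and 147 FPKM in EV cells, with replicate 3 the highest of all libraries (adjusted p = 0.653). POLA1, PRIM2, POLD1 and POLE2 had log2 changes between -0.14 and -0.06 and overlapping groups.

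Both genes that finish lagging-strand fragments had lower values in each miR-424 library than in each EV library, as did 26.9% of all tested loci, and 0 of them passed the test. FEN1, the flap endonuclease, was at 21.5, 20.3 and 20.9 FPKM in miR-424 cells, against 23.6, 23.6 and 23.4 FPKM in EV cells (log2 change -0.16 ± 0.04, SE), and at an adjusted p of 0.054 it just missed the threshold. LIG1, the ligase that seals the fragments, was at 17.2, 16.3 and 16.1 FPKM in miR-424 cells, against 17.8, 18 and 17.8 FPKM in EV cells (adjusted p = 0.168).

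All 5 measured genes of nucleotide supply and uracil control had lower values in each miR-424 library than in each EV library, a separation seen in 26.9% of all tested loci, and 0 of them passed the test. TYMS, thymidylate synthase, was at 81.3, 80.6 and 69.1 FPKM in miR-424 cells, against 88.9, 88.0 and 86.1 FPKM in EV cells (log2 change -0.19 ± 0.07, SE; adjusted p = 0.148). TK1, the S-phase thymidine kinase, was at 71.6, 71.4 and 78.7 FPKM in miR-424 cells, against 86.7, 83.2 and 81.4 FPKM in EV cells (log2 change -0.18 ± 0.05, SE; adjusted p = 0.0868). In TYMS replicate 3 was the farthest from the EV libraries and in TK1 the nearest to them. UNG, the uracil DNA glycosylase, which has 1 seed match, was at 39.8, 41.4 and 34.8 FPKM in miR-424 cells, against 45.2, 47.4 and 46 FPKM in EV cells (log2 change -0.25 ± 0.07, SE; adjusted p = 0.0694). RRM1, the large subunit of ribonucleotide reductase, and DUT, which removes dUTP, had log2 changes of -0.10 and -0.13 (adjusted p = 0.185 and 0.166).

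Of the chromatin genes CHAF1B, a subunit of the histone chaperone CAF-1, had the most negative change of the 49. It was at 17.1, 16.4 and 14.1 FPKM in miR-424 cells, against 19.1, 19.5 and 19.0 FPKM in EV cells (log2 change -0.27 ± 0.07, SE; adjusted p = 0.0726). The groups were separate, with replicate 3 lowest. CHAF1A, the large subunit, had a log2 change of -0.10 ± 0.05 (SE; adjusted p = 0.293) and overlapping groups. SLBP, which binds the stem-loop of replication-dependent histone mRNAs, was at 42.9, 46.5 and 39.0 FPKM in miR-424 cells, against 46.1, 46.3 and 44.2 FPKM in EV cells (adjusted p = 0.483), also with overlap.

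The position of miR-424 replicate 3 relative to replicates 1 and 2 varied with the GC content of the transcripts. Its difference from their mean ran from -0.38 for RPA3 to 0.21 for MCM5 (log2), and it was lower for 36 of the 49 genes and higher for 13. Across the 49 genes this difference had a Pearson r of 0.80 and a Spearman rho of 0.77 with GC content, and across 11407 tested loci 0.55 and 0.62. These are descriptions across genes of the same libraries, and genes are not independent replicates. The 10 replication genes over 55% GC, which include MCM2, MCM5, POLD1 and TK1, had median changes against EV of -0.13, -0.15 and -0.01 in miR-424 replicates 1, 2 and 3. The 17 genes under 45% GC, which include PRIM1, GMNN and ORC4, had -0.07, -0.03 and -0.22. Over all tested loci the same medians were -0.08, -0.1 and -0.05 over 55% GC, and 0.05, 0.06 and -0.18 under 45% GC. In both sets replicates 1 and 2 were lower against EV at high than at low GC, and replicate 3 was higher. The part of GC content in the changes of single genes was not tested.

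**Figure D4:**
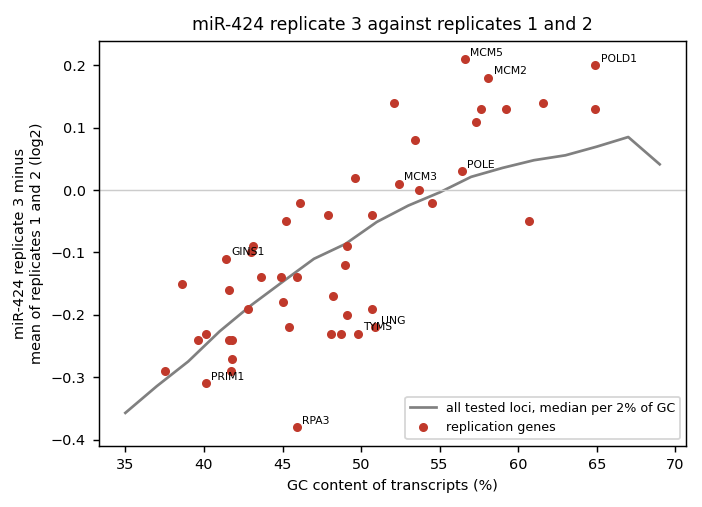
Difference of miR-424 replicate 3 from the mean of replicates 1 and 2 (y axis, log2) against the mean GC content of each gene's transcripts (x axis, percent) for 49 replication genes (red), with the median of all tested loci per 2% of GC (grey line). Genes under 45% GC lie below 0 and most genes over 55% GC lie above 0, along the grey line.

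With a smooth GC trend removed from each library, 8 replication genes were lower and 0 higher (16.3% and 0%), against 7.09% and 6.17% of all loci (821 and 714). The 8 were CHAF1B, GINS1, GINS2, GMNN, POLD3, POLE, PRIM1 and UNG, and MCM3 was no longer among them (adjusted p = 0.0627). With the trend removed and miR-424 replicate 3 left out, 18 were lower (36.7%), MCM3, GINS1 and POLE among them, and 2 were higher, ORC4 and RPA2, against 14.5% and 15.4% of all loci. These 18 also held DUT, FEN1, MCM7, PCNA, RFC3, RFC4, RRM1, TK1 and TYMS. The fit with replicate 3 left out compares 2 libraries with 3.

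**Figure D5:**
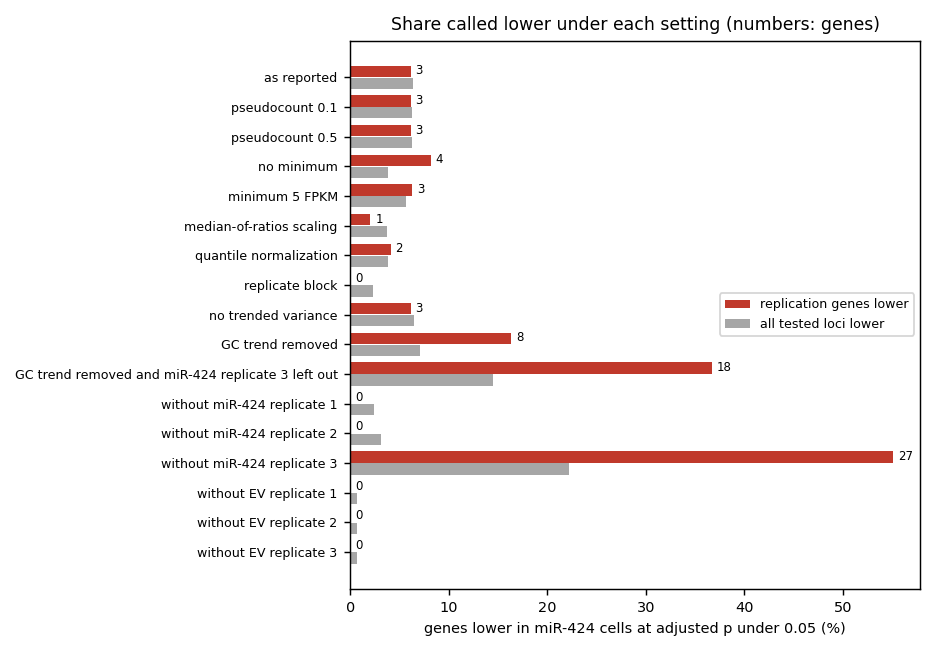
Percentage of replication genes (red, with the number of genes) and of all tested loci (grey) that were lower in miR-424 cells at an adjusted p under 0.05 (x axis) under each setting (rows). The 2 percentages are nearly equal as reported (6.12% and 6.32%), and the red bar is longest without miR-424 replicate 3 (55.1% against 22.2%).

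Seed matches and E2F-type words were set beside these changes. The 6 replication genes with a seed match had a median log2 change of -0.16 and the 43 without one had -0.10, and the 3 genes that passed the test were all among those without. Over the tested loci the medians were -0.06 with and -0.04 without a match, and 9.95% and 5.48% were called lower. The 18 replication genes with an E2F-type word had a median of -0.12 with 3 called lower, and the 25 without one had -0.10 with 0 called. These calls are from the values as deposited. With the GC trend removed, CHAF1B, GMNN, PRIM1 and UNG, without a word, were called lower, as were GINS1, GINS2 and POLE, with one. Among tested genes 6.24% with the word and 6.16% without it were called lower, with medians of -0.05 and -0.04. Neither difference was tested.

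Few other genes of the pathway passed the test. Of 55 further replication genes, all tested, 1 fell and 0 rose (1.82% and 0%, against 6.32% and 1.24% of all loci), and their median log2 change was -0.098. By library, the medians against EV were -0.05, -0.05 and -0.224 in miR-424 replicates 1, 2 and 3, so that replicate 3 was the farthest from EV. The gene that fell was TONSL, which helps repair stalled forks and reads new histones, at 12.8, 12.4 and 13.4 FPKM in miR-424 cells, against 15.7, 15.2 and 14.9 FPKM in EV cells (log2 change -0.23 ± 0.04, SE; adjusted p = 0.0279). Its groups did not overlap, and leaving out any 1 library other than miR-424 replicate 3 ended the call. The firing kinase genes DBF4 and CDC7, the fork protection genes TIMELESS, TIPIN and CLSPN, the topoisomerase genes and the CDT1 turnover genes DTL, SKP2, CUL4A, CUL4B and DDB1 did not pass.

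Of 25 mitotic genes, listed for G2 and M phase though not all are limited to it, 3 fell and 0 rose. That is 12% and 0%, against 6.32% and 1.24% of all loci. All 25 had negative changes (median -0.141), against 68.3% of all loci, but the medians against EV were -0.086, -0.091 and -0.329 in miR-424 replicates 1, 2 and 3. CENPE, CENPF and HMMR were above the EV mean in replicates 1 and 2, and their negative changes came from replicate 3. The list summed to between 1318 and 1486 FPKM in the miR-424 libraries and between 1571 and 1578 FPKM in the EV libraries. The 3 were KIF20A, UBE2C and BIRC5, named after their values were seen, with log2 changes of -0.17, -0.23 and -0.28. CDC20 and CDK1, the most abundant, had log2 changes of -0.08 and -0.19 (adjusted p = 0.185 and 0.442). The part of cell division in the replication genes' values was not tested.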

How the data were processed

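Messenger RNA of 6 MCF12A cultures was sequenced, with groups and replicate numbers from the sample titles. The authors deposited 1 table of FPKM values, with 1 column per sample. Per the submitters' processing notes, the build was hg19 (GRCh37) and the tools included Cuffdiff, Cufflinks 1.3.0 and TopHat 1.4.1, each listed without its task. The sources used here do not state read numbers, annotation, strand use or how libraries were scaled. Steps of whole fragments in values under 0.1 FPKM were not clear (at most 12.4% of low loci lay within 0.03 log2 of the commonest ratio to EV replicate 1), so depth is unknown and no count test, interval or detection limit is given.

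Rows were found by symbol. A locus coordinate can span neighbours: the stretches of 7 members (ORC4, MCM7, PCNA, RFC4, RPA3, POLA1 and TYMS) overlap other listed loci, whose reads may not be fully separable without strand. Values were transformed to log2(FPKM + 1), which understates changes of low genes, and the 11574 loci whose mean reached 1 FPKM were tested with limma 3.58.1 in R 4.3.3 (trended prior variance, no covariate, two-sided, Benjamini-Hochberg, threshold 0.05), after a test on simulated data. An exact permutation test of 3 against 3 cannot go below 0.1. GC content came from GENCODE 29 transcripts (98.6% of tested loci), and GC trends were removed by loess (span 0.5).

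The alternatives were pseudocount, minimum FPKM, scaling, prior variance, replicate block, GC trend and each library left out. Some target sites are not reported here. The 50 genes (members), lists and tests were chosen with earlier results of these data known. The rule gave library values for members past the threshold (at most 12 in each direction), the most abundant of each role and any within 1.5 times the minimum (0), and up to 6 other replication genes past the threshold. Other members were chosen after their values were seen.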

Additional observations from a re-analysis of the deposited data

How the results depend on the processing

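Over 16 alternatives the median of the 49 replication genes' (members') changes on the log2 scale stayed between -0.143 and -0.039, the value nearest 0 with median-of-ratios scaling. No trended variance and the replicate block change only the errors and cannot move this median, which stayed at -0.105. With other pseudocounts and no trended variance the same 3 members were called. No minimum gave 4 and a minimum of 5 FPKM 3, with 468 loci lower in all. Median-of-ratios scaling called 1 member lower (344 loci higher and 436 lower) and quantile normalization 2, GINS1 and POLD3 (319 and 447). With the GC trend removed 8 members and 6 other replication genes were lower and 1 other replication gene higher (714 loci higher and 821 lower). With miR-424 replicate 3 also left out, 18 members were lower and 2 higher. In that setting 13 other replication genes were lower and 4 higher (1777 loci higher and 1683 lower).

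Leaving out 1 library gave 31 to 1728 loci higher and 77 to 2574 lower, 0 to 27 members lower and 0 to 2 higher, and 0 to 15 other replication genes lower and 0 to 4 higher, the high ends without miR-424 replicate 3. The cause was not tested.

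Same-numbered samples had deviations correlated by 0.05, 0.15 and 0.13, so the numbers were not taken as pairs; a replicate block called 0 members and 0 other replication genes lower (79 loci higher and 270 lower).

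Of 783 alternative values of single members, 673 kept their sign and side of the threshold, 49 passed it and 23 missed it only there, and 38 had the other sign, in 17 members with changes as reported between -0.11 (LIG1) and 0.02 (MCM6). With median-of-ratios scaling these log2 changes were 0.00 for ORC1, ORC3, CDC45, GINS4 and POLA1, 0.03 for ORC2 and POLD2, 0.04 for ORC5, 0.06 for ORC6, MCM5 and RPA2 and 0.01 for MCM2. With quantile normalization they were 0.03 for ORC2, 0.01 for ORC5 and 0.04 for ORC6, MCM5 and RPA2. With the GC trend removed they were 0.03 for ORC6, 0.01 for CDT1 and POLD1, 0.02 for MCM2, 0.06 for MCM5 and 0.04 for RPA2 and POLD2, and with miR-424 replicate 3 also left out 0.08 for RPA2 (limma adjusted p = 0.0305) and 0.01 for POLD2, LIG1 and SLBP. Leaving out 1 library at a time gave -0.08 to 0.04 for ORC2 and MCM5, -0.11 to 0.02 for ORC3, -0.08 to 0.02 for ORC5, -0.03 to 0.04 for ORC6, -0.01 to 0.05 for MCM6, -0.11 to 0.01 for POLA1 and -0.04 to 0.07 for RPA2, the last past the threshold without miR-424 replicate 3 (adjusted p = 0.039). With no read numbers, counting error cannot be separated from other spread.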
